A study of Capra hircus with 10 samples.

Results

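The let-7 family was examined in the mammary gland of lactating goats. Every row of the deposited miRNA tables whose name, without its species prefix, is let-7 with a letter from a to i, or miR-98, was taken, whatever its level. The rule found 18 mature miRNA of the 1804 listed, namely the 5p and the 3p arm of 9 genes: let-7a, let-7b, let-7c, let-7d, let-7e, let-7f, let-7g, let-7i and miR-98. The animals, of the Alpine breed, had kidded 48 ± 2 days earlier and were at peak lactation. All had received a diet of orchard grass hay and concentrate for 2 weeks. The 4 Control goats (libraries L01, L04, L06 and L10) went on eating it freely, while the 6 food-deprived (FD) goats (L02 and L03, L05, and L07 to L09) had no feed for the last 48 h before slaughter but kept access to water. About 150 mg of gland from each goat gave 1 small RNA library, so the libraries are biological replicates. The question was whether this deprivation shifted the level, the mix or the arms of the family.

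A miRNA is a short RNA that guides the silencing complex to messenger RNA, mainly through its seed, the bases from position 2 to position 8. A hairpin precursor gives 2 mature forms, one from its 5p side and one from its 3p side, and usually one of them is kept in far larger amount. The let-7 miRNA are among the most conserved of animals. They are known for rising as cells differentiate and for restraining growth genes such as those of the RAS and HMGA2 type, while the RNA-binding protein LIN28 blocks their maturation. miR-98 carries another name but the same 5p seed, and is counted as a member.

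The 5p sequences are shown first because they differ so little that the counting had to tell members apart by single bases. The seed is in capitals, and the letters are those of the deposited tables, which write T for U.

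let-7a-5p: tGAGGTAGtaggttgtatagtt

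let-7b-5p: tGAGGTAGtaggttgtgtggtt

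let-7c-5p: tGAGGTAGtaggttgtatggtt

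let-7d-5p: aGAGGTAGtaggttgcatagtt

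let-7e-5p: tGAGGTAGgaggttgtatagtt

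let-7f-5p: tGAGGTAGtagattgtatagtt

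let-7g-5p: tGAGGTAGtagtttgtacagtt

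let-7i-5p: tGAGGTAGtagtttgtgctgtt

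miR-98-5p: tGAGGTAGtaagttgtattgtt

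All 9 share the seed GAGGTAG, and 0 other miRNA of the 1804 hold it. Positions are counted from 1 at the 5′ end, with the base of let-7a-5p first. let-7c-5p differs from let-7a-5p by A19G, let-7e-5p by T9G and let-7f-5p by G12A. let-7b-5p has A17G beside A19G, so it is 1 base from let-7c-5p. Of the 36 pairs of 5p members, these 4 are 1 base apart, and the most distant pair, let-7d-5p and let-7i-5p, differs at 6 positions. How reads matching more than one of these close members were shared out is not given in the sources used here. The levels of let-7a-5p, let-7b-5p, let-7c-5p, let-7e-5p and let-7f-5p are therefore uncertain to the extent that reads with a sequencing error, or with edited or missing end bases, were counted on a neighbour.

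The 3p forms are less alike, and their seeds split them. They are shown because the groups formed by the seed are used again below.

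let-7a-3p: cTATACAAtctactgtctttcc

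let-7b-3p: cTATACAAcctactgccttcct

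let-7f-3p: cTATACAAtctattgccttccc

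miR-98-3p: cTATACAActtactactttccc

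let-7c-3p: cTGTACAAccttctagctttcc

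let-7d-3p: cTATACGAcctgctgcctttc

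let-7e-3p: cTATACGGcctcctagctttcc

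let-7g-3p: cTGTACAGgccactgccttgcc

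let-7i-3p: cTGCGCAAgctactgccttgct

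The seed TATACAA is common to the 3p forms of let-7a, let-7b, let-7f and miR-98. Each of the other 5 3p forms has a seed of its own, and 0 miRNA outside the family hold any of these. All mature forms are 22 bases long except let-7d-3p, which has 21, and no correction for length was made. Whether the library preparation captured each sequence equally was not tested. Levels and arm shares compared between members are therefore those of read counts.

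In the goat gene table of RefSeq (assembly ARS1.2, which is not the assembly the authors mapped to, so no coordinates are given), all 9 genes are present. MIRLET7C lies next to MIR99A with 0 genes between them, and MIR125B is the next gene on the other side of MIRLET7C. All 3 overlap the long non-coding RNA LOC102176916. MIRLET7A is next to MIRLET7B, MIRLET7F next to MIRLET7D, and MIRLET7E next to MIR99B. MIRLET7G overlaps WDR82, which encodes a subunit of a histone methyltransferase complex, and MIR98 overlaps HUWE1, which encodes a ubiquitin ligase. MIRLET7I overlaps no other gene of the table, and neither do MIRLET7A, MIRLET7B, MIRLET7D, MIRLET7E and MIRLET7F.

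Counts summed to between 4495512 and 9842009 per library, lower on average in Control (5793256) than in FD libraries (7458478). Normalized counts, which are counts divided by the size factor of the library, are used for levels. Marker miRNA of the gland's cell types were all detected where listed. The 6 epithelial markers (miR-200a, miR-200b, miR-200c, miR-141, miR-429 and miR-205-5p) summed to normalized counts of 220473 to 244168 in Control and 172861 to 242470 in FD libraries. The 2 forms of miR-126, which mark endothelium, summed to 117544 to 144955 in Control and 136542 to 197735 in FD libraries, where 5 of 6 lay above every Control. The erythroid sum (3 of 4 listed miRNA present) ran from 3750 to 6061 in Control and from 5961 to 8756 in FD libraries, with 5 of 6 again above every Control. The leukocyte sum (5 of 7 present) ran from 9496 to 15531 and from 12226 to 23631, and the stromal sum (5 of 6 present) from 695340 to 932400 and from 581860 to 1142249. No marker of these lists passed an adjusted p of 0.1 in the edgeR test described below, in which no miRNA passed. In their own DESeq2 analysis of these libraries, the authors listed miR-126-3p, miR-223-3p, miR-223-5p and miR-451-5p as higher in FD goats, as they did let-7c-5p. In a whole gland, fewer cells of a type and less RNA per cell cannot be told apart.

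The family took between 3.363% (L10, 95% Wilson interval 3.351% to 3.376%) and 4.4% (L09, 4.386% to 4.415%) of all counts of a library. The Control libraries averaged 3.871% ± 0.35 (SD, n = 4), the FD libraries 3.958% ± 0.359 (SD, n = 6), and the diets overlapped over nearly the whole range. Intervals of this kind cover the counting error within a library only, and not the differences between goats. PCR duplicates cannot be recognised without molecular identifiers, so the intervals may be too narrow even for counting error. The 3p forms made up between 1.06% and 1.51% of the family's counts.

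The 5p members spanned a wide range of levels. let-7a-5p was the most abundant, at a mean over the 10 libraries of 80563 normalized counts, and ranked 15 among the 490 miRNA that passed the count filter. let-7f-5p followed at 76199, and together the pair took between 58.7% and 65.7% of the family's 5p counts. let-7a-5p lay above let-7f-5p in 9 of 10 libraries, but the median ratio was only 1.07, and in L06 let-7f-5p was the higher. let-7i-5p came next at 41637, then let-7g-5p at 24663 and let-7b-5p at 12005. Each of these steps held in all 10 libraries, with median ratios between neighbours from 1.7 to 1.92. miR-98-5p, at 7044, was below let-7b-5p in all 10 libraries. It lay above let-7c-5p, at 5830, in 9 of 10, with a ratio from 0.903 to 1.61, so the order of these 2 did not hold beyond their spread. let-7e-5p (2318) was below let-7c-5p in all 10 libraries. It lay above let-7d-5p (1881) in 9 of 10.

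The members also differed in how much they varied over the libraries of both diets. Over the 10 libraries the coefficient of variation was 8.83% for let-7f-5p, 9.93% for let-7d-5p, 10.3% for let-7a-5p and 10.5% for let-7e-5p. It was 14.0% for let-7b-5p, 16.2% for let-7c-5p and 16.9% for let-7i-5p. Of the tested 3p forms, let-7d-3p varied least, at 14.6%, and let-7e-3p most, at 34.2%, where it was counted only 12 to 77 times per library.

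Among the 3p forms, let-7b-3p (974 normalized counts) and let-7a-3p (926.3) stood highest, and each was above the other in 5 of 10 libraries. let-7d-3p came next at 578, then let-7i-3p at 307.2. let-7f-3p (159.8) and miR-98-3p (149.9) were again close, with let-7f-3p higher in 6 of 10. let-7g-3p stood at 62.54 and let-7e-3p at 31.5. let-7c-3p was counted only 5 to 15 times per library. Its highest normalized count, 16.01, was under the filter of 28, so 17 of the 18 members were tested.

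**Figure D1:**
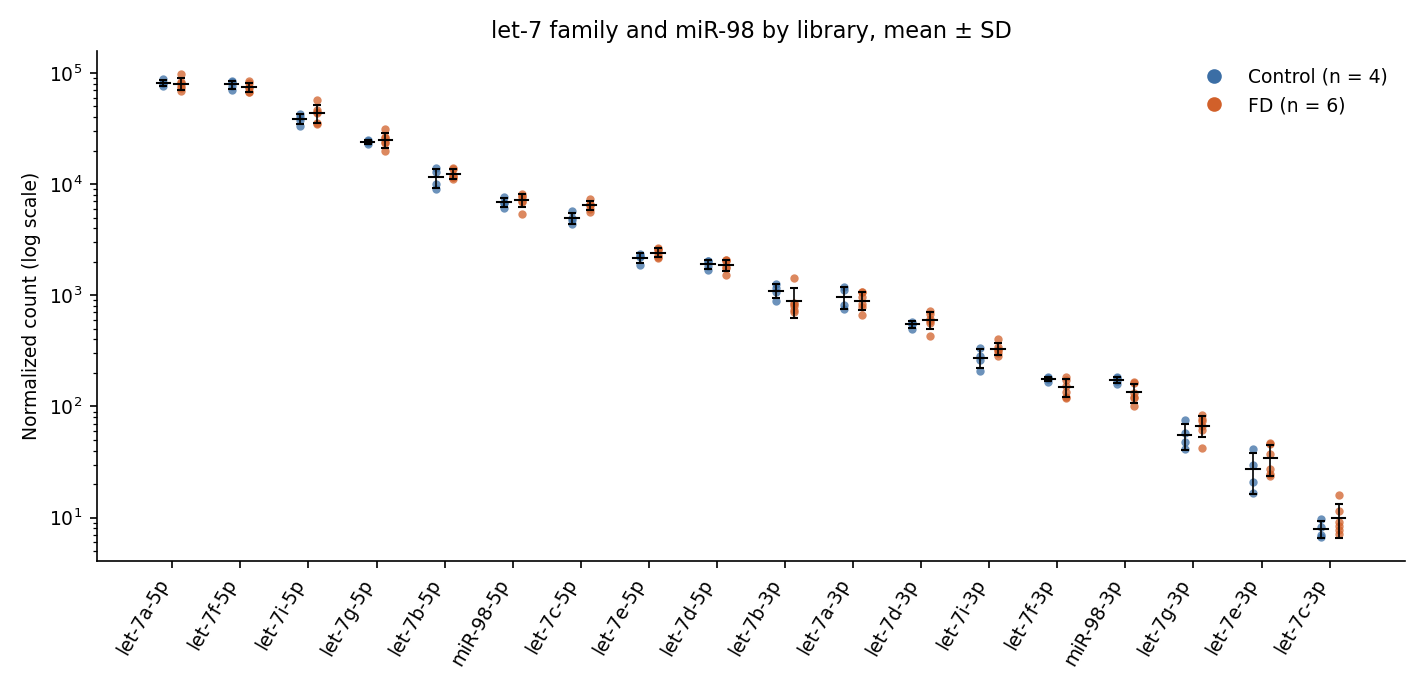
Normalized counts (log scale) of the 18 mature miRNA, ordered by mean, with 1 point per library, Control blue and FD orange, and the mean ± SD of each diet as bars. The mean levels run from 80563 for let-7a-5p to 9.147 for let-7c-3p, and the diets overlap for each member.

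The diets were then compared for each miRNA with the quasi-likelihood test of edgeR. For most of the family the difference was small. With Benjamini-Hochberg adjustment over the 490 miRNA, 0 of 17 members passed 0.1, and neither did any other miRNA (0.0% of 490). At an unadjusted p under 0.05, 1 member was higher in FD libraries (let-7c-5p), where 7.55% of all tested miRNA were. By the same measure 1 was lower (miR-98-3p), where 8.16% of all were. Both shares of the 17 are near that background. The log2 fold change of FD over Control was above 0 in 10 members and below 0 in 7. Its median was 0.059, against -0.000 over all tested miRNA. No member had diets that did not overlap, against 1.22% of all miRNA with every FD library above every Control and 1.02% with every FD library below.

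**Figure D2:**
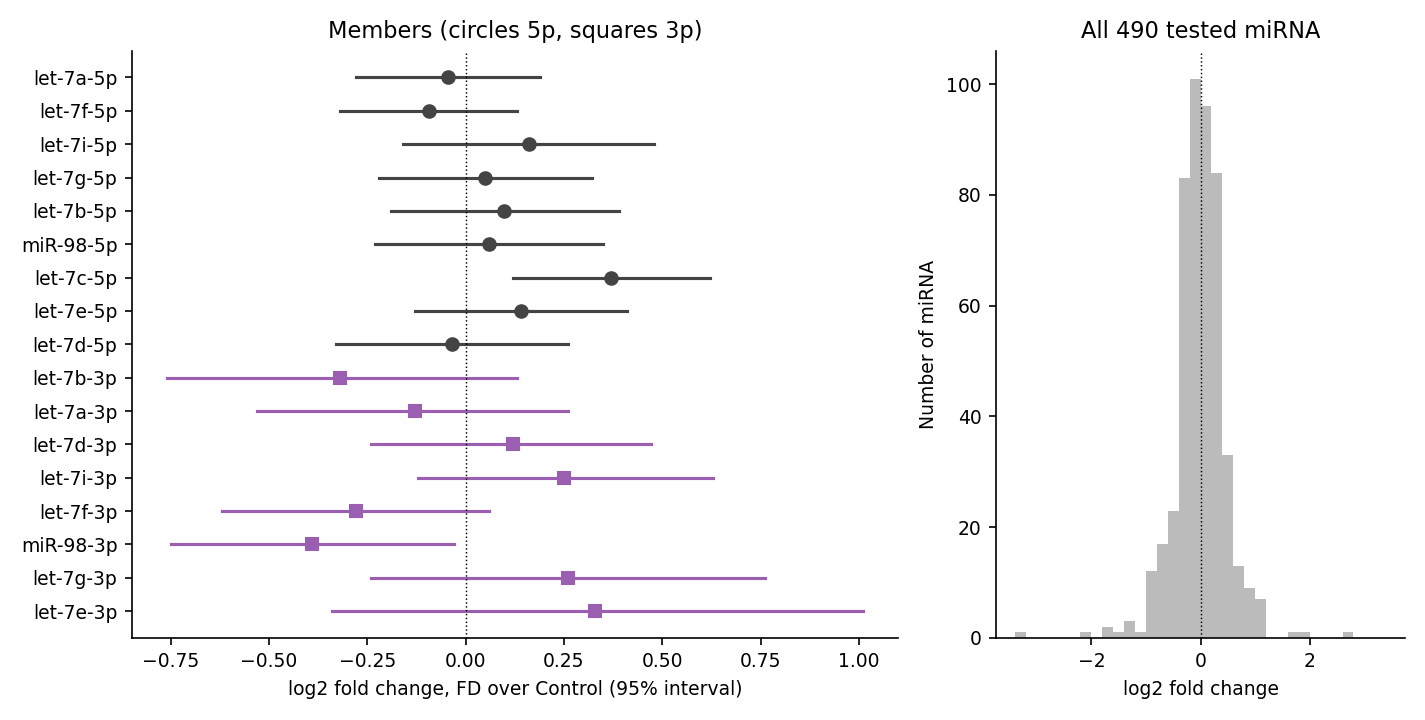
On the left, the log2 fold change of FD over Control with its 95% interval for the 17 tested members, 5p forms as circles and 3p forms as squares, in order of level. Only the intervals of let-7c-5p (0.12 to 0.62) and miR-98-3p (-0.75 to -0.03) leave out 0. On the right, a histogram of the same value for all 490 tested miRNA, centred near 0.

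let-7c-5p was the member with the smallest p. Its normalized count was 5667 in L01, 4793 in L04, 4365 in L06 and 4910 in L10, the Control libraries. In the FD libraries it was 5586 at the lowest (L02), 6525 at the median and 7363 at the highest (L05). Thus 5 of the 6 FD libraries lay above every Control, and L02 lay just under L01. The means were 4934 ± 542.4 (SD, n = 4) and 6427 ± 600.9 (SD, n = 6), and the fitted fold was 1.29 (log2 0.37, SE 0.115). In edgeR the adjusted p was 0.195, which misses 0.1, at an unadjusted p of 0.00733 that ranked 14 of 490. In the Wald test of DESeq2 the adjusted p was 0.0633 at a log2 fold change of 0.37, so there let-7c-5p passed, as the only member to do so, where 2.45% of all tested miRNA were called higher. That call held in 4 of the 10 DESeq2 fits that each left out 1 library. It was lost without L03, L04, L05, L06, L07 or L08, at adjusted p from 0.108 (L05) to 0.255 (L06). The study named let-7c-5p from these same libraries, so its direction here is not independent evidence. Marker miRNA moved beside it. The endothelial and erythroid sums lay above every Control in 5 of 6 FD libraries as well. Of the 5 leukocyte markers 4 were higher in FD libraries at an unadjusted p under 0.05, with log2 fold changes from 0.67 for miR-146a to 1.15 for miR-223-3p, and miR-150 and miR-223-5p between them. Of the 6 epithelial markers 5 had values below 0, with miR-200b and miR-429, both at -0.34, under an unadjusted p of 0.05. The remaining epithelial marker, miR-205-5p, went the other way at 0.41, as did the remaining leukocyte marker, miR-155-5p, at -0.12. Of the 5 stromal markers 4 had values above 0, with none under an unadjusted p of 0.05 in edgeR. The part of these cell types in the result was not tested.

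Because let-7c-5p is 1 base from let-7a-5p and from let-7b-5p, its level was also set against the family within each library, a comparison chosen after the values were seen and given without a test. Its share of the family's 5p counts was 1.75% to 2.18% in Control and 2.25% to 2.88% in FD libraries, without overlap. Set against let-7a-5p, its count came to 6.39% in L01, 5.89% in L04, 5.75% in L06 and 6.11% in L10. The FD libraries ran from 6.67% (L09) to 9.02% (L05), with a mean of 8.12% ± 0.952 (SD, n = 6) beside 6.035% ± 0.279 (SD, n = 4). This ratio to let-7a-5p is free of any scaling between libraries, and every FD library was above every Control. Among the 489 tested miRNA other than let-7a-5p, 1.02% had a ratio to let-7a-5p that was higher in the same way, and let-7c-5p was the only member of the family among them.

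**Figure D3:**
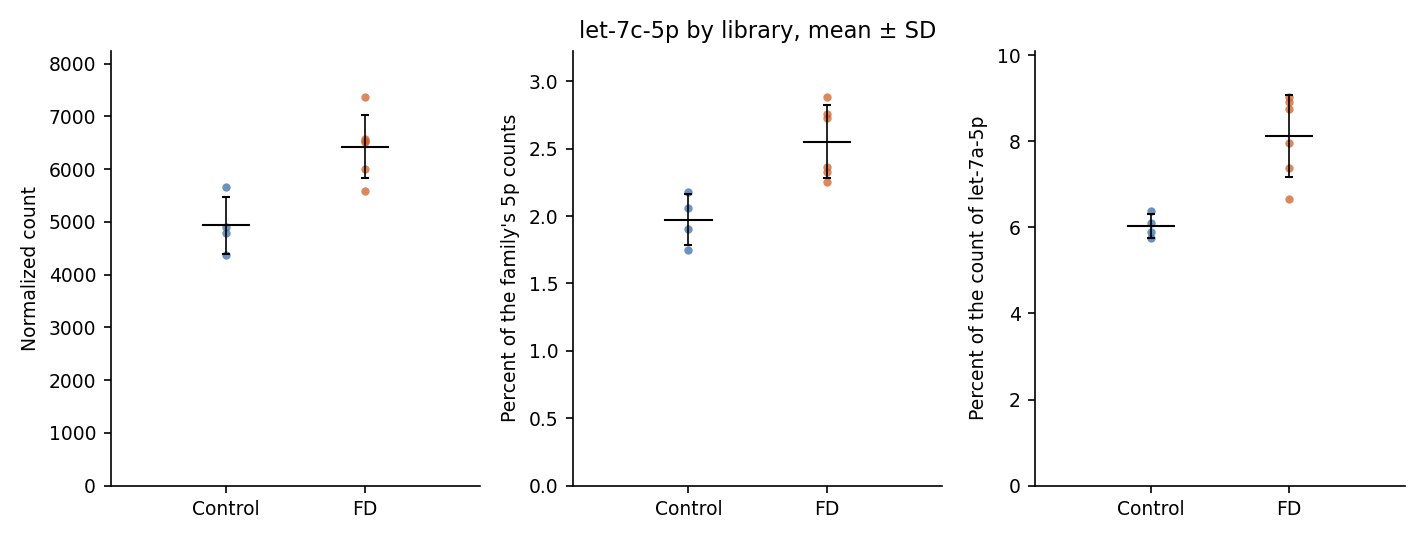
let-7c-5p in each library as a normalized count, as a percent of the family's 5p counts and as a percent of the count of let-7a-5p, with the mean ± SD of each diet. One FD library overlaps the Controls in the first panel, and the diets are apart in the second and the third, where FD values start at 2.25% and 6.67%.

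The other 5p members differed less. let-7a-5p, the most abundant, averaged 81605 ± 5308 normalized counts over the 4 Control libraries, beside 79868 ± 10218 (SD) over the 6 FD libraries. Its log2 fold change was -0.045, with a 95% interval from -0.28 to 0.19. let-7f-5p averaged 78627 ± 6417 and 74580 ± 6995, with a log2 fold change of -0.093 (-0.32 to 0.13). For both, the diets overlapped, and an interval around 0 does not show equal levels.

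let-7i-5p ranged from 33545 to 42896 normalized counts in Control and from 34915 to 57266 in FD libraries, where the highest was L07. Among the 6 FD libraries 4 lay above every Control, and the log2 fold change was 0.16 (SE 0.147, edgeR adjusted p = 0.565). let-7e-5p ranged from 1876 to 2372 and from 2145 to 2687, with 3 of 6 FD libraries above every Control and a log2 fold change of 0.14 (adjusted p = 0.557). For let-7g-5p (0.048), let-7b-5p (0.097), miR-98-5p (0.059) and let-7d-5p (-0.035) the log2 fold changes stayed within 0.1 of 0, at edgeR adjusted p from 0.708 for let-7b-5p to 0.902 for let-7d-5p. Of these, let-7g-5p spread more widely in FD (19918 to 31381) than in Control libraries (22777 to 24871).

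Among the 3p forms, miR-98-3p had the smallest p. Its normalized count was 159 in L01, 181.5 in L04, 183.5 in L06 and 170 in L10. In FD libraries it was 101.7 at the lowest (L08), 127.6 at the median and 166.5 at the highest (L02). So 4 of 6 FD libraries lay below every Control, and L02 and L09 lay among the Controls. The log2 fold change was -0.39 (SE 0.166), at an unadjusted p of 0.0359 and an adjusted p of 0.298 in edgeR. In DESeq2 the adjusted p was 0.244. Without L09 the log2 fold change was -0.47, at an adjusted p of 0.184 in edgeR. The raw counts behind these values were 101 to 186 per library, so counting error adds to the spread between goats.

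The other 3p forms with the seed of miR-98-3p also had log2 fold changes below 0. These were -0.32 for let-7b-3p, -0.28 for let-7f-3p and -0.13 for let-7a-3p, with adjusted p from 0.409 to 0.705 in edgeR. For let-7b-3p the value was -0.52 (adjusted p = 0.184) without L09, whose 1424 normalized counts stood far above the 713 to 843.2 of the other FD libraries. In let-7f-3p 4 of 6 FD libraries lay below the lowest Control of 166.7, and 1 lay above the highest of 185.3. The 4 tested 3p forms with other seeds had log2 fold changes above 0, from 0.12 for let-7d-3p and 0.25 for let-7i-3p to 0.26 for let-7g-3p and 0.33 for let-7e-3p. The medians of these groups were -0.298 and 0.257. The split by seed was noticed after the values were seen, none of the 8 passed the adjusted threshold, and it was not tested.

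The use of the 2 arms was compared as well, since a ratio within a precursor needs no scaling between libraries. The arms were paired by the precursor listed for them. Whether other gene copies with the same mature sequence added reads to an arm was not tested. In every member gene the 5p form prevailed. The share of the 3p form in the reads of both arms was highest for let-7d, at 17.2% to 28.7% of a library's reads, and for let-7b, at 5.64% to 11.4%. It was 1.41% to 2.66% for miR-98, 0.888% to 1.79% for let-7e, 0.788% to 1.55% for let-7a and 0.545% to 0.864% for let-7i. For let-7f and let-7g it stayed under 0.4%. For let-7c it was 0.0958% to 0.286%, from only 5 to 15 reads of the 3p form. Over the 113 precursors with both arms tested, 57.5% had less 3p than 5p at the median library.

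The difference between diets in the log2 ratio of 3p to 5p reads was tested with limma on these 113 precursors, of which 8 were members. None of the 8 passed an adjusted p of 0.1, against 0.885% of all, a single precursor (mir-335, named after its value was seen). At an unadjusted p under 0.05, 1 member had a lower ratio in FD libraries, miR-98, beside 3.54% of all precursors.

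For miR-98 the 3p share was 2.54% in L01 (95% Wilson interval 2.12% to 3.04%), 2.3% in L04 (1.99% to 2.65%), 2.66% in L06 (2.24% to 3.14%) and 2.45% in L10 (2.12% to 2.83%). In FD libraries it ran from 1.41% in L08 (1.22% to 1.64%) to 2.4% in L03 (2.04% to 2.83%). The FD values were under every Control in 5 of 6 libraries, and L03 lay among the Controls. The log2 ratio was lower in FD libraries by a difference of -0.46 (SE 0.168, 95% interval -0.82 to -0.09), with an adjusted p of 0.424 in limma. The level of miR-98-5p had a log2 fold change of 0.059 between the same libraries (95% interval -0.23 to 0.35).

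For let-7b the 3p share was again under every Control in 5 of 6 FD libraries, at 5.64% to 6.36% beside a lowest Control of 6.43% in L01. The highest values came from both diets. It was 11.2% in L04 (10.6% to 11.8%), 11.4% in L06 (10.7% to 12.1%) and 10.9% in L09 (10.4% to 11.4%), of which L09 is an FD library. In the other 7 libraries it was between 5.64% and 7.17%. The diets differed in the log2 ratio by -0.45 (SE 0.227), with an adjusted p of 0.578 in limma, and by -0.61 without L09, with an adjusted p of 0.168. L09 also had the lowest 3p share of let-7d (17.2%) and of let-7a (0.788%), so it was not high in 3p reads of the whole family. The Control libraries L04 and L06 were the next lowest for let-7d, at 19.7% and 21.6%. For let-7g the same libraries were lowest, at 0.134% in L09, 0.165% in L04 and 0.199% in L06. L09 thus did not stand alone among the 10 libraries.

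**Figure D4:**
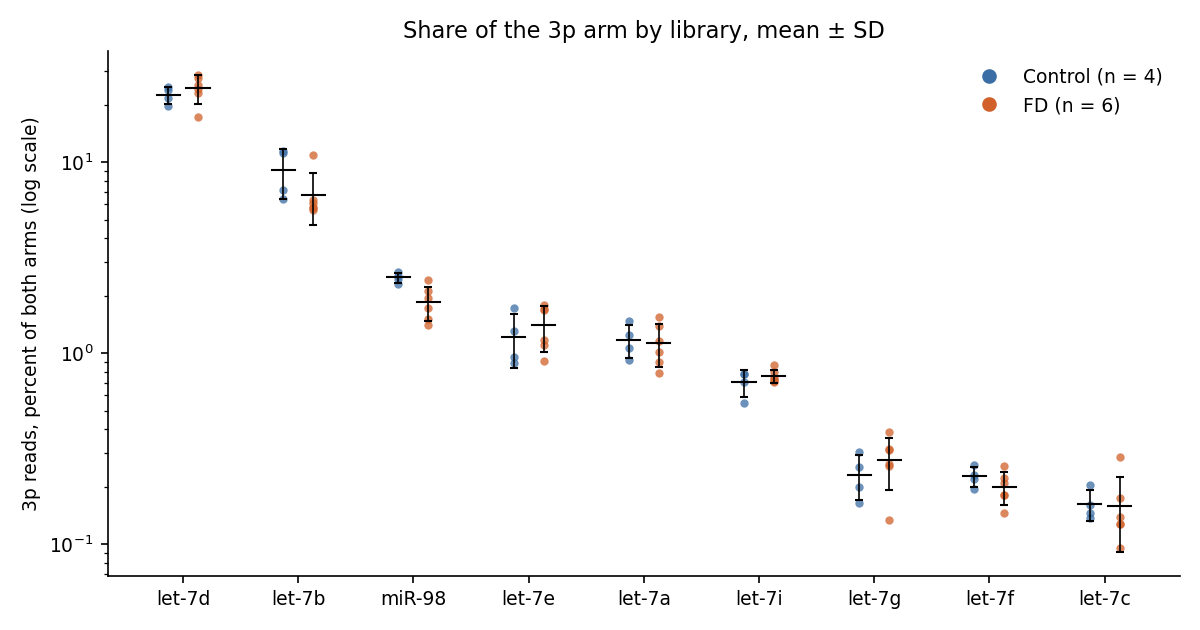
Share of 3p reads in the reads of both arms (percent, log scale) for the 9 genes, with 1 point per library and the mean ± SD of each diet. let-7d and let-7b stand highest, the FD libraries of miR-98 lie mostly below the Controls, and 1 FD library of let-7b, at 10.9%, lies with the high Controls.

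The genes of miR-99a and miR-125b are the nearest to that of let-7c on its 2 sides, but at unlike distances. In assembly ARS1.2, 644 bases lie between let-7c and miR-99a and 50464 between let-7c and miR-125b. The genes of miR-99b and miR-125a belong, with let-7e, to a related cluster known in other mammals. miR-100, miR-99a and miR-99b form a family of their own, as do miR-125a and miR-125b. Of the 9 partner forms tested, 8 had a log2 fold change above 0, where 245 of all 490 miRNA did, and the median was 0.365. In edgeR 0 passed the adjusted threshold, and 4 were higher at an unadjusted p under 0.05, beside 7.55% of all miRNA. DESeq2 called 3 of the 9 higher, namely miR-99a-5p, miR-99a-3p and miR-125b-3p, beside 2.45% of all. Their genes flank that of let-7c in the gene table. The authors listed the same 3 miRNA as higher in FD goats from these libraries, so these calls are not independent evidence.

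miR-99a-5p, the nearest neighbour of let-7c, was at a normalized count of 5207 in L01, 5627 in L04, 4676 in L06 and 6622 in L10. In FD libraries it was 6933 at the lowest (L02), 7302 at the median and 10093 at the highest (L05), so that every FD library lay above every Control. The log2 fold change was 0.46 (SE 0.14), with adjusted p = 0.195 in edgeR and 0.0715 in DESeq2. The corresponding values were 0.54 for miR-125b-5p (adjusted p = 0.237 in edgeR, 0.117 in DESeq2) and 0.36 for miR-125b-3p (0.237 and 0.0905). For miR-99b-5p, the neighbour of let-7e, the log2 fold change was 0.29 (95% interval -0.14 to 0.71) at an adjusted p of 0.457 in edgeR, and for miR-125a-5p it was 0.32 (-0.08 to 0.71) at 0.421. The difference between these and the neighbours of let-7c was not tested. These comparisons rest on the same 10 libraries as that of let-7c-5p. In the authors' RT-qPCR, miR-99a-5p kept its direction but its change was not significant.

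Across the 10 libraries the level of let-7c-5p was compared with that of each of the other 489 tested miRNA, as log2(normalized count + 1). For these correlations the threshold was an adjusted p of 0.05, stricter than the 0.1 of the diet test. None passed it (Benjamini-Hochberg over 489, smallest 0.066 for Pearson and 0.0782 for Spearman), 3 (miR-204-5p, miR-125b-3p and miR-500-3p) had an adjusted Pearson p under 0.1, and 72 had an unadjusted permutation p under 0.05. The highest was that with miR-204-5p (Pearson's r = 0.943, permutation p = 0.00015, adjusted p = 0.066). Its Spearman's rho was 0.903 (permutation p = 0.00092, adjusted p = 0.15), and r was 0.922 without the 2 libraries farthest from the median of let-7c-5p (L06 and L05). miR-125b-3p followed (r = 0.921, permutation p = 0.00027, adjusted p = 0.066), with rho = 0.939 (permutation p = 0.00016, adjusted p = 0.0782) and r = 0.845 without those libraries. With miR-99a-5p, which ranked 4, r was 0.851 (permutation p = 0.00165, adjusted p = 0.139) and rho 0.879 (permutation p = 0.00176, adjusted p = 0.173). The permutations for the pooled value mixed the 2 diets, so a shift with diet in both miRNA enters it. Without L06 and L05 this r was 0.64 (permutation test, adjusted p = 0.892). Over deviations from the diet means it was 0.578 (adjusted p = 0.656). Both were lower than the pooled value. Without L01 it was 0.916 with an adjusted p of 0.0196, the only left-out library with which this relation passed 0.05. The others among the 5 highest outside the family were miR-196a (r = 0.855) and chr9_13534-5p, a miRNA predicted by the authors (r = 0.847). Within diets these had r of 0.624 and 0.43, while miR-204-5p had 0.809 and miR-125b-3p 0.776. From these same libraries, the authors had listed all 5 as higher in FD goats, as they had let-7c-5p. They also reported a strong correlation of let-7c-5p with mir-99. The pooled correlations are therefore not independent of the diet comparison.

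Other members followed let-7c-5p less closely or not at all. let-7e-5p came nearest, with r = 0.809 (permutation p = 0.00401, adjusted p = 0.182), 0.793 within diets and 0.611 without L06 and L05. Its rho was 0.733 (permutation p = 0.0206, adjusted p = 0.257). For let-7b-5p r was 0.656, with 0.746 within diets, 0.845 over the 6 FD libraries alone and 0.262 without L06 and L05. The r was 0.47 for let-7i-5p, 0.181 for let-7a-5p, 0.177 for miR-98-5p, 0.0926 for let-7g-5p, 0.0671 for let-7d-5p and -0.222 for let-7f-5p. Over the other 8 5p members the median r was 0.179, against 0.0566 over all 489 miRNA.

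At the other end was another member. miR-98-3p had r = -0.799 (permutation p = 0.00668, adjusted p = 0.204) and rho = -0.927 (permutation p = 0.00038, adjusted p = 0.0929) with let-7c-5p. Its r was -0.737 without L06 and L05 and -0.567 within diets. Outside the family the lowest were miR-500-3p (r = -0.894, permutation p = 0.00053, adjusted p = 0.0864), miR-660 (-0.861), miR-532-5p (-0.845), chr3_4386-3p (-0.821) and miR-331-5p (-0.808). Of these, the genes of miR-500 and miR-660 lie next to each other in the RefSeq table, with 0 genes between them. Within diets, the r of these 5 ran from -0.817 to -0.492.

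**Figure D5:**
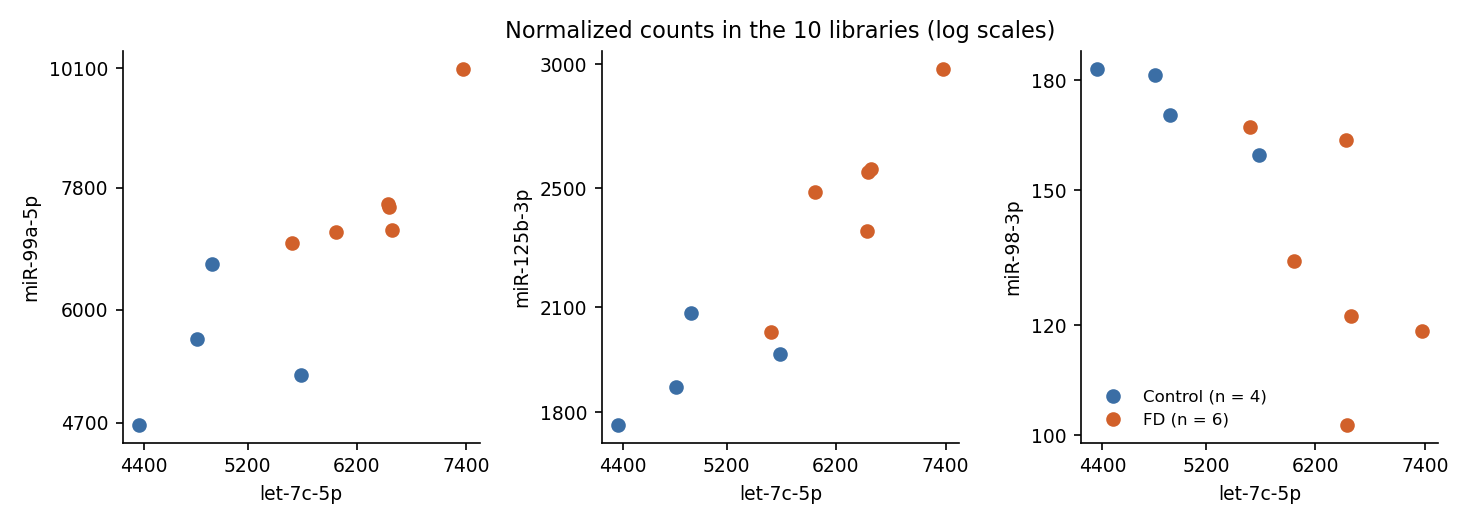
Normalized counts (log scales) of miR-99a-5p, miR-125b-3p and miR-98-3p against that of let-7c-5p, with 1 point per library, Control blue and FD orange. The points of the first pair slope upward (r = 0.851 and 0.921) and those of miR-98-3p slope downward (r = -0.799), and none of these has an adjusted p under 0.05.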

How the data were processed

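The counts are the whole-number reads per mature miRNA that the authors deposited for each library. Per their methods, they trimmed adapters (Cutadapt), kept reads by size, aligned these to goat assembly CHIR_1.0, counted with the miRDeep2 quantifier on known (miRBase) and predicted precursors and removed redundant miRNA. CASAVA 1.8.2 is named in the submitters' processing notes. The deposited normalized columns and the table of predicted precursors were not used here. The library protocol names no molecular identifiers.

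Normalized counts are counts divided by median-of-ratios size factors over 1804 miRNA. The 490 miRNA with a highest normalized count above 28 were tested, FD against Control, with edgeR (TMM, glmQLFit, glmQLFTest, two-sided), and a threshold of 0.1 on the Benjamini-Hochberg adjusted p. The SE is the log2 fold change over the square root of F. Arm ratios, log2((3p + 0.5)/(5p + 0.5)), were tested with limma (trend on the lower count). One precursor, mir-133b, whose 2 names hold the same reads in every library, was left out of that test after the counts were seen. Correlations used 100000 permutations, two-sided. Fits were tested on simulated data. The members, the marker and partner lists and the tests were chosen with earlier results of these data known. The miRNA named are all members, the neighbours miR-99, miR-100 and miR-125, and the 5 highest and 5 lowest correlations with let-7c-5p outside the family. Marker names without an arm were matched by the arm the tables list. Totals and size factors differ between libraries, and levels of few counts are less precise. The mRNA and RT-qPCR measurements were not analysed here. Software was R 4.3.3, edgeR 4.0.16, DESeq2 1.42.0, limma 3.58.1, Python 3.11.15, scipy 1.17.1, numpy 2.4.6, matplotlib 3.10.9 and pandas 2.3.3. Alternatives were other tests, scalings and filters and each library left out in turn.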

Additional observations from a re-analysis of the deposited data

Results flagged for a closer look

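In 56 groups of 4 or 6 libraries (18 levels, 9 shares of the 3p arm and the share of the family, each in both diets), a library was looked for whose gap to the nearest other took most of the range of its group, by Dixon's 95% limit. Chance alone marks about 1 in 20 such groups, and 2 were marked here. Both were L09, an FD library, for let-7b. Its normalized count of let-7b-3p was 1424, against 713 to 843.2 in the other 5 FD libraries. Its 3p share of let-7b was 10.88%, against 5.643% to 6.363%. These are 2 readings of the same reads of let-7b-3p, and not independent.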

How the results depend on the processing

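Members passing the adjusted threshold numbered 0 in edgeR, 1 with DESeq2 (let-7c-5p) and 0 under limma-voom, other scalings, other filters and each library left out. Over all miRNA, DESeq2 called 26 of 490. In edgeR 5 of 1804 were called without a count filter, 1 of 351 among known miRNA alone and 1 of 487 without L02. The remaining settings called no miRNA at all. Members with an unadjusted p under 0.05 numbered 2, and 1 with library totals as scaling and 1 without a count filter. They numbered from 1 to 4 with a library left out, at 4 without L09 (let-7c-5p, miR-98-3p, let-7b-3p and let-7f-3p), where 86 of all 481 miRNA tested were under 0.05 too, and at 1 (let-7c-5p) without L03, L04, L05, L06 or L07. Over all miRNA that count was 77, and 46 to 97 with a library left out. The log2 fold change of let-7c-5p stayed between 0.30 and 0.43, and that of miR-98-3p between -0.48 and -0.34. Of 306 refitted values, 7 took the other sign, all within 0.05 of 0. With a library left out, let-7a-5p ran from -0.1282 to 0.0049 (above 0 without L03), let-7g-5p from -0.0443 (without L09) to 0.1160, and miR-98-5p from -0.0012 to 0.1373 (below 0 without L01 or L09). let-7d-5p ran from -0.1200 to 0.0180 (above 0 without L02 or L06) and was 0.0009 with library totals. The scalings moved the median of all miRNA by at most 0.036. For arms, 0 members were called in any setting, and the difference of let-7a ran from -0.1828 to 0.0426 with a library left out, above 0 without L09 or L10. The correlation of let-7c-5p with miR-99a-5p ran from 0.773 to 0.916 with a library left out. The median share of the family was 3.981% of all counts (3.953% to 4.008% with a library left out), and 13.79% of those outside the 10 most abundant miRNA. The 5 members linked by single bases summed to a median of 70.2% of the 5p counts. If each read was counted once, this value does not depend on how reads were split among them. Whether each read was counted once is not given in the sources used here. The DESeq2 fits without a library and the arm fit that kept mir-133b were chosen after seeing the data. Causes of these shifts were not tested. No paired analysis was possible because the labels carry no pairing of the goats.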
